A study of Mus musculus with 6 samples.

Results

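The genes described here make nicotinamide adenine dinucleotide (NAD), turn it into its phosphate form NADP, pass hydride between the pair of pools, or use NAD to remove acyl groups from proteins. They are Nmrk1, Nmrk2, Nampt, Nmnat1, Nmnat3, Nadk, Nadk2, Nnt, Sirt1 and Sirt3. They were chosen by name for their place in these pathways, with earlier results of these data known. All 10 were found among the 48005 gene identifiers of the table. RNA from 6 mouse hearts was sequenced. The 3 knock-in hearts carry a conditional Txnip allele in which the PPXY motifs are changed to AAXA, and the 3 wild-type hearts are labelled Txnip flox. All 6 hearts are of the C57BL/6 background, carry MerCreMer (a Cre recombinase that 4-hydroxytamoxifen switches on) and had 4-hydroxytamoxifen. The promoter that drives MerCreMer, the age and sex of the mice, the time of day at collection and the C57BL/6 substrain are not given in the labels. The wild-type hearts are also the controls of another series, and whether both groups were prepared and sequenced together is not given, so a difference in preparation and the genotype cannot be told apart. The labels speak of hearts and not of numbered animals, so p-values measure the spread between these 3 and 3 samples.

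NAD in the heart is made mainly by salvage. Nampt joins nicotinamide to a ribose phosphate to give nicotinamide mononucleotide, and is regarded as the rate-limiting step. The nicotinamide riboside kinases Nmrk1 and Nmrk2 reach the same mononucleotide from nicotinamide riboside. Nmrk1 is found in many tissues, while Nmrk2 is known mainly from striated muscle and is known to rise in failing mouse hearts. The enzymes Nmnat1 in the nucleus and Nmnat3 in mitochondria add the adenylyl group that completes NAD. Nadk in the cytosol and Nadk2 in mitochondria phosphorylate NAD to NADP, and Nnt in the inner mitochondrial membrane uses the proton gradient to transfer hydride from NADH to NADP. The deacylases Sirt1, mainly nuclear, and Sirt3, mitochondrial, consume NAD. Txnip binds thioredoxin, and its PPXY motifs are known to bind the WW domains of ubiquitin ligases.

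Across the hearts, Nmrk2 fell 3.33-fold in knock-in hearts and Nadk2 rose 1.54-fold. The other 8 genes passed no threshold at an edgeR adjusted p of 0.05. Among these 8, the values of Nampt, Nadk and Nnt did not overlap between the groups, as was the case for 30.7% of all genes tested. All 10 genes passed the filter on low counts. The background is high in this comparison: of 13066 genes tested, 1415 (10.8%) were called, 881 (6.74%) higher and 534 (4.09%) lower in knock-in hearts, so 1 gene called higher and 1 called lower among 10 is close to the share over all genes. The median log2 fold change was −0.01 over the 10 genes and −0.004 over all genes tested. Of the calls over all genes, 62.3% were higher with TMM scaling (trimmed mean of M-values), 44.7% with upper-quartile factors and 44.1% with total counts alone.

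**Figure D1:**
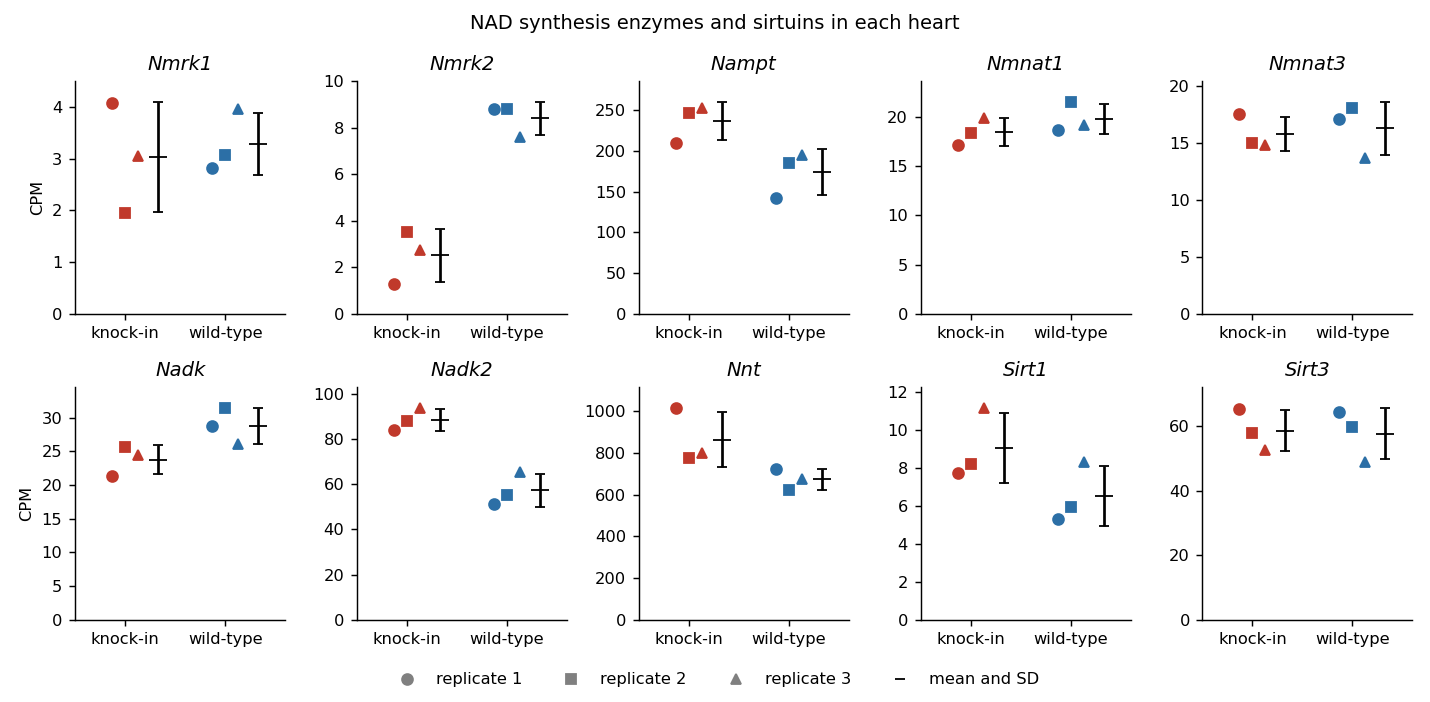
Level of each gene in each heart, in counts per 1000000 counts of the TMM-scaled library (CPM), with knock-in hearts in red on the left and wild-type hearts in blue on the right of each panel; symbols mark the replicate and black bars the mean and SD of 3 hearts. Nmrk2 lies between 1.27 and 3.53 CPM in knock-in hearts and between 7.59 and 8.80 CPM in wild-type hearts, and Nadk2 lies between 83.9 and 93.5 CPM in knock-in hearts and between 51.4 and 65.5 CPM in wild-type hearts.

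Libraries held 31989883 to 34016586 counts in knock-in hearts and 30329004 to 30625093 counts in wild-type hearts, with 11.6% to 12.3% and 11.6% to 14.0% of them from the mitochondrial genome. Wild-type libraries held more of their reads near the 3′ ends of transcripts. Over 1796 long genes, the median log2 ratio of counts in the last to the first of 3 equal parts of the exonic length was −0.24 to −0.08 in knock-in libraries and 0.30 to 0.70 in wild-type libraries, so the coverage and the genotype cannot be told apart. With this ratio added to the model 4 of 13066 genes passed, none of them among the 10. Since the ratio did not overlap between the groups, that fit cannot separate coverage from genotype. The values it gives for single genes below carry this limit. Txnip itself had 363, 751 and 670 CPM in knock-in hearts, against 887, 939 and 886 CPM in wild-type hearts. The groups did not overlap, but the log2 difference of −0.60 ± 0.20 (SE) had an edgeR adjusted p of 0.0698, and since a change of codons does not remove a transcript, these counts do not check the genotype.

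Nmrk2, the muscle-type riboside kinase (ENSMUSG00000004939, GRCm38 chromosome 10, 81198170 to 81202037, minus strand, 7 exon bins of 1840 bases), was the gene of this group with the strongest difference. It had 1.27, 3.53 and 2.73 CPM in knock-in hearts, against 8.80, 8.80 and 7.59 CPM in wild-type hearts. Every knock-in heart was below every wild-type heart, as was the case for Nampt, Nadk, Nadk2 and Nnt in one direction or the other, while over all genes tested 30.7% had values that did not overlap. The means were 2.51 ± 1.14 and 8.39 ± 0.698 CPM (SD, n = 3 each), a log2 fold change of −1.73 ± 0.29 (SE) with an edgeR adjusted p of 0.00611, and the gene stood at rank 94 by p. These values rest on 39, 116 and 93 counts in knock-in hearts, against 274, 275 and 236 counts in wild-type hearts.

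The lowest Nmrk2 value was in knock-in replicate 1, which was also the lowest library for Txnip. This heart stood apart in other genes too. Acta2 had 66.7 CPM there, against 141 and 133 CPM in the other knock-in hearts, and Kdr 59.6 against 110 and 137 CPM, while Nnt was highest there. Without that heart the log2 fold change of Nmrk2 was −1.44 with an edgeR adjusted p of 0.000972. The gene was called with any of the 6 hearts left out, with edgeR adjusted p between 0.000972 and 0.0358. All 7 bins had lower mean counts in knock-in hearts. The long terminal bin of 1277 bases, mostly 3′ untranslated, held 5, 15 and 24 counts in knock-in hearts, against 34, 36 and 43 counts in wild-type hearts, and these did not overlap either. When bins in the last 1000 exonic bases alone were used, which left the terminal bin of Nmrk2, the log2 fold change was −1.19 with an edgeR adjusted p of 0.125. With coding bins it was −1.94 with an adjusted p of 0.00328.

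The listed markers of skeletal muscle, the tissue where Nmrk2 is best known, were scarce in every library. The 8 markers summed to 3.38 to 4.78 CPM in knock-in hearts and 3.63 to 4.94 CPM in wild-type hearts, with Myh2 at 0. Of the 3 tested, 0 passed with edgeR, DESeq2 or limma-voom, and 0 had an unadjusted edgeR p under 0.05. The 5 atrial markers summed to 52.8 to 93.7 CPM in knock-in hearts and 85.4 to 191 CPM in wild-type hearts. Nearly all of this sum was Nppa, at 91.0, 50.1 and 84.7 CPM in knock-in hearts, against 158, 188 and 79.9 CPM in wild-type hearts. Myl7, Sln and Bmp10 had only 26, 5 and 3 counts over all libraries. The part of the atrial markers in the Nmrk2 result was not tested. The 5 cardiomyocyte markers in the table summed to 48058 to 53477 CPM in knock-in hearts and 37411 to 47013 CPM in wild-type hearts. Of these 5, 0 passed with edgeR and 1 with DESeq2, and 3 had an unadjusted edgeR p under 0.05. In bulk tissue, fewer cells of a type and less RNA per cell cannot be told apart.

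Among 6764 genes of at least 10 CPM on average, those whose log2 CPM followed Nmrk2 most closely over the 6 hearts were Arfip2, Esd, Myl1 and Sp100, with Pearson coefficients of 0.993, 0.988, 0.986 and 0.982. The points share their libraries, and the coefficients are a description only. Myl1, a myosin light chain of fast skeletal muscle fibres, had 40.4, 54.4 and 49.4 CPM in knock-in hearts, against 80.7, 80.8 and 83.4 CPM in wild-type hearts. It was called lower, at −0.76 on the log2 scale with an edgeR adjusted p of 0.00599. Since it was picked for following Nmrk2, this call is no separate evidence. Myl1 was not among the listed skeletal muscle markers and stood far above their sum.

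Nmrk1, the widely expressed riboside kinase (ENSMUSG00000037847, chromosome 19), had 4.08, 1.95 and 3.06 CPM in knock-in hearts, against 2.83, 3.07 and 3.95 CPM in wild-type hearts. The ranges overlapped, and the log2 difference of −0.12 ± 0.28 (SE) had an edgeR adjusted p of 0.822. Per kilobase of exon, both kinases together had 1.91, 2.50 and 2.40 CPM in knock-in hearts, against 5.63, 5.70 and 5.31 CPM in wild-type hearts. Nmrk2 made up 36.2%, 76.7% and 61.9% of this sum in knock-in hearts, against 85.0%, 83.9% and 77.7% in wild-type hearts. The highest knock-in share lay just under the lowest wild-type share. This order depended on the bins used. Per kilobase of coding bins, Nmrk2 and Nmrk1 had 5.94 and 1.77 CPM in knock-in replicate 2. In wild-type replicate 3 they had 12.2 and 4.08 CPM, so the shares of the groups overlapped on that scale.

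Nampt (ENSMUSG00000020572, GRCm38 chromosome 12, 32820335 to 32853369, plus strand, 11 bins of 4547 bases) had 209, 247 and 253 CPM in knock-in hearts, against 142, 185 and 195 CPM in wild-type hearts. All knock-in values were above all wild-type values, but the highest wild-type heart was close to the lowest knock-in heart. The means were 236 ± 23.4 and 174 ± 28.3 CPM (SD, n = 3 each), a log2 difference of 0.44 ± 0.13 (SE), and the edgeR adjusted p of 0.0511 was just short of the threshold. DESeq2 gave an adjusted p of 0.0275 and limma-voom 0.0457. With 1 heart left out, the edgeR adjusted p ran from 0.0171 without wild-type replicate 3 to 0.257 without wild-type replicate 1, and the log2 difference from 0.54 to 0.29. With the coverage ratio of the libraries in the model the sign turned, to −0.33, with an edgeR adjusted p of 0.984, in a fit that cannot separate coverage from genotype.

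The promoters of both route genes are shown because they stand at the start of the compared routes, and that of Sirt1 because it holds the motif through which clock proteins are known to act. Each is the RefSeq window on GRCm38.p6 from 250 bases before to 50 bases after the annotated start, and 8 of the 10 genes were matched, in 11 windows. That of Nmrk2 is chr10:81201988-81202287 on the minus strand, that of Nampt chr12:32820085-32820384 on the plus strand and that of Sirt1 chr10:63338986-63339285 on the minus strand. Capitals mark TATAAA in Nmrk2, a motif chosen after the sequence had been read, and the E-box CACGTG in Sirt1.
Nmrk2: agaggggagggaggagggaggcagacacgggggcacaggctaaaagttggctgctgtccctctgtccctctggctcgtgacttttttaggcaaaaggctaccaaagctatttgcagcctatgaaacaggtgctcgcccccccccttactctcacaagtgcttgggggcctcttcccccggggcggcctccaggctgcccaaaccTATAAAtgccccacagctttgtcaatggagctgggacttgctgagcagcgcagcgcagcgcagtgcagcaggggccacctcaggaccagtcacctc
Nampt: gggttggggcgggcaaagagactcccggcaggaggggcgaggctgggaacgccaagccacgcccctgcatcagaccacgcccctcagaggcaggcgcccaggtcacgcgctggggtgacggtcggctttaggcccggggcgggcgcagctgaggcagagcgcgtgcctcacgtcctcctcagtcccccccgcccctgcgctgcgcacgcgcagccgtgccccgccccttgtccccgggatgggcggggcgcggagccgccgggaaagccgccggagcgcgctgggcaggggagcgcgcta
Sirt1: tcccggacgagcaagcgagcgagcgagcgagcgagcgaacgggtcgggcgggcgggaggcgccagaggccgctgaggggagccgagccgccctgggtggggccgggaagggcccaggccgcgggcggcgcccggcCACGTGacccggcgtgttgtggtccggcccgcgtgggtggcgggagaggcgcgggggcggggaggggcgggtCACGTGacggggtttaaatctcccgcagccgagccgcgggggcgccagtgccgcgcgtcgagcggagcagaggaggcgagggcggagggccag

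In the Nmrk2 window TATAAA begins 46 bases before the start, and it was found in no other window of these genes on either strand, against 13.6% of 32851 windows in all. The Nmrk2 window has a GC content of 60.7% and 8 CpG pairs, and the Nampt window 76.3% and 36 CpG pairs, where the median GC content of all windows is 52.7%. CACGTG, the same on both strands, was found in the Sirt1 window, beginning 115 and 43 bases before the start, and in 1 Nadk window at 40 bases before it, against 7.15% of all windows. The AP-1 motif TGANTCA, searched on both strands, was in none of the 11 windows and in 7.81% of all windows. A match of letters is a description and not a binding site.

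Nampt is a known target of the circadian clock, and several clock genes differed between these hearts. Of 16 clock genes tested, 5 rose, 1 fell and 10 passed no threshold, with a median log2 fold change of 0.50. Over all genes 6.74% were higher and 4.09% lower, with a median of −0.004. Cry2, a repressor of the clock, had 25.5, 29.1 and 28.5 CPM in knock-in hearts, against 15.7, 15.5 and 15.0 CPM in wild-type hearts, a log2 fold change of 0.84 with an edgeR adjusted p of 0.00525. Hlf, an output transcription factor, had 16.3, 18.4 and 21.4 CPM in knock-in hearts, against 9.82, 10.9 and 7.14 CPM in wild-type hearts, with an edgeR adjusted p of 0.00787. Neither gene overlapped between the groups.

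Nr1d2 (0.71), Tef (0.52) and Clock (0.62) also rose on the log2 scale, with edgeR adjusted p of 0.0102, 0.0242 and 0.0438. Arntl, the partner of Clock that drives E-box genes, fell by 1.14 on the log2 scale, with an edgeR adjusted p of 0.0334. It had 4.77, 3.59 and 2.76 CPM in knock-in hearts, against 6.04, 5.79 and 12.6 CPM in wild-type hearts, where replicate 3 stood far above the others. Cry2 and Hlf were called with any single heart left out, while Nr1d2, Tef, Clock and Arntl each lost their call with at least 3 of the 6 hearts left out in turn. Clock was at −0.66 with bins of the last 2000 exonic bases and −0.39 with the coverage ratio in the model, and Tef at −0.01 with bins of the last 1000 bases, none of them called. With the last 2000 bases Cry2 was at 0.57 with an edgeR adjusted p of 0.0510, while Hlf kept its call. Neither was called with the coverage ratio in the model. Wild-type replicate 3 also stood apart in some clock genes without a call. Per1 had 9.45 CPM there, against 42.4 and 34.9 CPM in the other wild-type hearts, and Ciart 3.22 against 13.8 and 12.1 CPM. The part of collection time in the Nampt values was not tested.

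The genes most like Nampt over the 6 hearts, among 6763, were D2hgdh, Dcun1d1, Slain2 and Rab6a, with Pearson coefficients of 0.998, 0.997, 0.997 and 0.996. D2hgdh, a mitochondrial dehydrogenase of D-2-hydroxyglutarate, had 23.2, 31.0 and 30.7 CPM in knock-in hearts, against 13.0, 19.9 and 20.6 CPM in wild-type hearts.

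The balance of the riboside and nicotinamide routes was taken as the log2 ratio of Nmrk2 to Nampt CPM within each heart, which is nearly free of library scaling. It was −7.29, −6.10 and −6.50 in knock-in hearts, against −4.00, −4.38 and −4.68 in wild-type hearts. The groups were separated by more than their own ranges. The means were −6.63 ± 0.606 and −4.35 ± 0.337 (SD, n = 3 each), a difference of −2.28, or 4.85-fold less Nmrk2 per Nampt in knock-in hearts. An exact two-sided permutation test over the 20 assignments gave p = 0.1, the smallest that 3 against 3 can give, and 0.2 after adjustment over the 6 ratios computed. In counts, there were 6.08, 14.3 and 10.8 Nmrk2 counts per 1000 Nampt counts in knock-in hearts, against 61.9, 47.6 and 38.8 in wild-type hearts. Per kilobase of exon, Nmrk2 was 1.502%, 3.53% and 2.68% of Nampt in knock-in hearts, against 15.3%, 11.8% and 9.59% in wild-type hearts.

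Most of this difference lay in Nmrk2. The ratio of Nmrk2 to Nmrk1 differed by −1.67 on the log2 scale between the groups, with no overlap and an exact permutation p of 0.1, while that of Nmrk1 to Nampt differed by −0.61 with overlap and an exact p of 0.2. The gap in the Nmrk2 to Nmrk1 ratio was slight, from 0.84 in knock-in replicate 2 to 0.93 in wild-type replicate 3. It rests on 64 to 125 Nmrk1 counts per heart, and per kilobase of coding bins the groups overlapped. The terminal bins, which are mostly 3′ untranslated, held fewer counts per base than the coding bins in both genes. Per base, that of Nmrk2 held 6.01%, 6.01% and 15.4% of the coding level in knock-in hearts, against 5.87%, 6.33% and 8.86% in wild-type hearts. That of Nampt held 11.5%, 10.3% and 11.5% in knock-in hearts, against 14.0%, 13.7% and 12.01% in wild-type hearts. A read spanning several bins is counted in each, which raises the counts per base of short bins. The terminal bins, of 1277 and 2947 bases, are far longer than the coding bins, so these percentages do not measure coverage alone. With the highest bin of each gene alone the difference in balance was −1.90, and over the alternatives that gave a value it lay between −2.54 and −1.90.

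**Figure D2:**
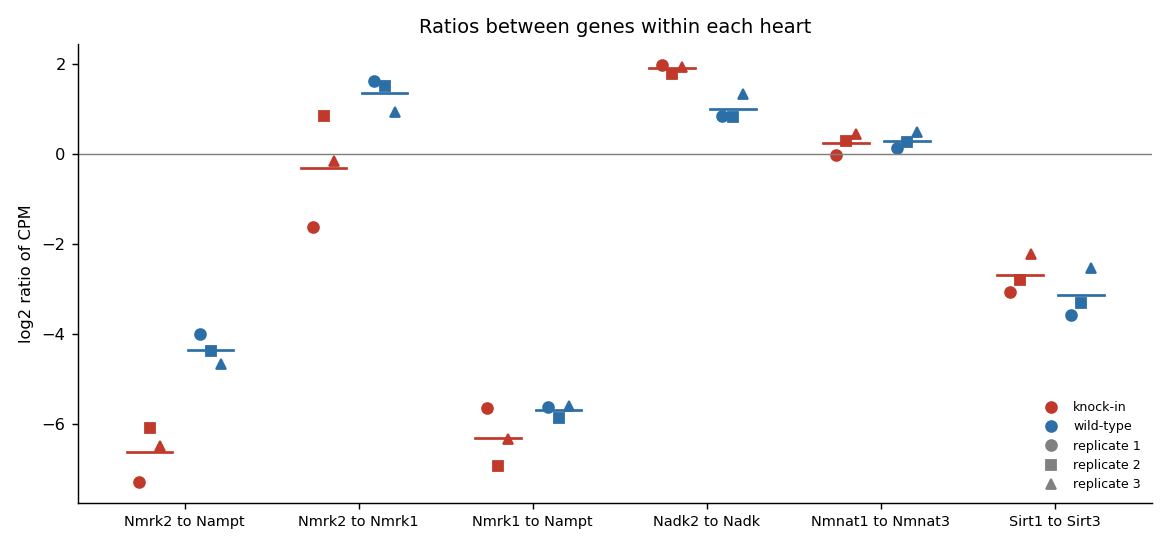
Log2 ratio of CPM between pairs of genes within each heart, with knock-in hearts in red on the left and wild-type hearts in blue on the right of each pair; symbols mark the replicate and lines the group means. The Nmrk2 to Nampt ratio averages −6.63 in knock-in hearts and −4.35 in wild-type hearts, and the Nadk2 to Nadk ratio 1.90 in knock-in hearts and 0.99 in wild-type hearts.

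The enzymes that complete NAD differed little. Nmnat1, the nuclear enzyme (ENSMUSG00000028992, chromosome 4), had 17.2, 18.3 and 19.97 CPM in knock-in hearts, against 18.7, 21.5 and 19.2 CPM in wild-type hearts. Nmnat3, assigned to mitochondria (ENSMUSG00000032456, chromosome 9), had 17.6, 15.0 and 14.8 CPM in knock-in hearts, against 17.1, 18.1 and 13.7 CPM in wild-type hearts. Both overlapped between the groups, with log2 differences of −0.10 ± 0.13 and −0.04 ± 0.15 (SE) and edgeR adjusted p of 0.679 and 0.881. The log2 ratio of Nmnat1 to Nmnat3 differed by −0.06 between the groups, with an exact permutation p of 0.8.

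The NAD kinases differed from each other. Nadk2, the mitochondrial kinase (ENSMUSG00000022253, GRCm38 chromosome 15, 9071260 to 9110487, plus strand, 27 bins), had 83.9, 88.1 and 93.5 CPM in knock-in hearts, against 51.4, 55.2 and 65.5 CPM in wild-type hearts. The groups did not overlap, with means of 88.5 ± 4.83 and 57.4 ± 7.31 CPM (SD, n = 3 each). Nadk2 rose by 0.63 ± 0.12 (SE) on the log2 scale, with an edgeR adjusted p of 0.00984. Nadk, the cytosolic kinase (ENSMUSG00000029063, chromosome 4), had 21.3, 25.6 and 24.4 CPM in knock-in hearts, against 28.7, 31.4 and 26.1 CPM in wild-type hearts. Its values did not overlap, but the log2 difference of −0.27 ± 0.13 (SE) had an edgeR adjusted p of 0.203.

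The log2 ratio of Nadk2 to Nadk was 1.97, 1.78 and 1.93 in knock-in hearts, against 0.84, 0.81 and 1.33 in wild-type hearts. The difference of 0.90 had an exact permutation p of 0.1, the smallest possible, and 0.2 after adjustment over the 6 ratios. The Nadk2 call was less steady than that of Nmrk2: it was lost without knock-in replicate 2 (edgeR adjusted p of 0.0598), without wild-type replicate 1 (0.0623) and without wild-type replicate 2 (0.0658). It was also lost with the highest bin alone, where the log2 difference was 0.47 and the edgeR adjusted p 0.135.

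The Nadk2 difference was larger at the 5′ end. In the first of the 3 parts of its exonic length Nadk2 had 54.1, 58.9 and 54.3 CPM in knock-in hearts, against 32.1, 31.6 and 36.2 CPM in wild-type hearts. In the last of the 3 parts it had 15.5, 14.3 and 21.2 CPM in knock-in hearts, against 10.98, 13.1 and 17.2 CPM in wild-type hearts, and here the groups overlapped. The log2 ratio of the means was 0.75, 0.60 and 0.31 from the first to the last part. With bins of the last 2000 exonic bases the log2 difference was 0.45 with an edgeR adjusted p of 0.206, and with the last 1000 bases 0.14 with an adjusted p of 0.891. With coding bins alone it was 0.60 with an adjusted p of 0.00797.

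Nnt, the hydride-transferring proton pump (ENSMUSG00000025453, chromosome 13, 20 bins of 7037 bases), was the most abundant of the 10 per kilobase. It had 1013, 776 and 802 CPM in knock-in hearts, against 722, 623 and 676 CPM in wild-type hearts. The groups did not overlap, and knock-in replicate 1 stood above the other hearts. The log2 difference of 0.36 ± 0.12 (SE) had an edgeR adjusted p of 0.0730, and without that heart it was 0.21 with an adjusted p of 0.184. The reference assembly comes from C57BL/6J, a substrain known to lack a block of Nnt exons. Those exons have no bin, so reads from them, if any, were not counted.

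The Nnt difference followed the position along the transcript. In the first of the 3 parts Nnt had 237, 192 and 201 CPM in knock-in hearts, against 94.5, 108 and 140 CPM in wild-type hearts. In the last of the 3 parts it had 422, 302 and 326 CPM in knock-in hearts, against 390, 302 and 309 CPM in wild-type hearts. The groups were well apart at the 5′ end and overlapped at the 3′ end, with log2 ratios of the means of 0.88, 0.43 and 0.07 from the first to the last part. The same order held for Nampt, at 0.52, 0.33 and 0.24, and for Nadk2. It also held for Nmrk1 (0.45, −0.07 and −0.41), Nmnat1 (0.01, −0.09 and −0.37) and Sirt3 (0.24, 0.11 and −0.20). This is the direction in which the coverage of the libraries differed over long genes. Nmnat3, Nadk and Sirt1 did not fall at each step. Nmrk2, with bins in the first and middle parts only, was at −1.80 and −1.45. Tested bin by bin, 735 of 10029 genes (7.33%) had changed exon bin usage, and none of the 10 genes did. Nnt alone had an unadjusted p under 0.05, at 0.0187, with an adjusted p of 0.149 (edgeR diffSpliceDGE, Simes).

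**Figure D3:**
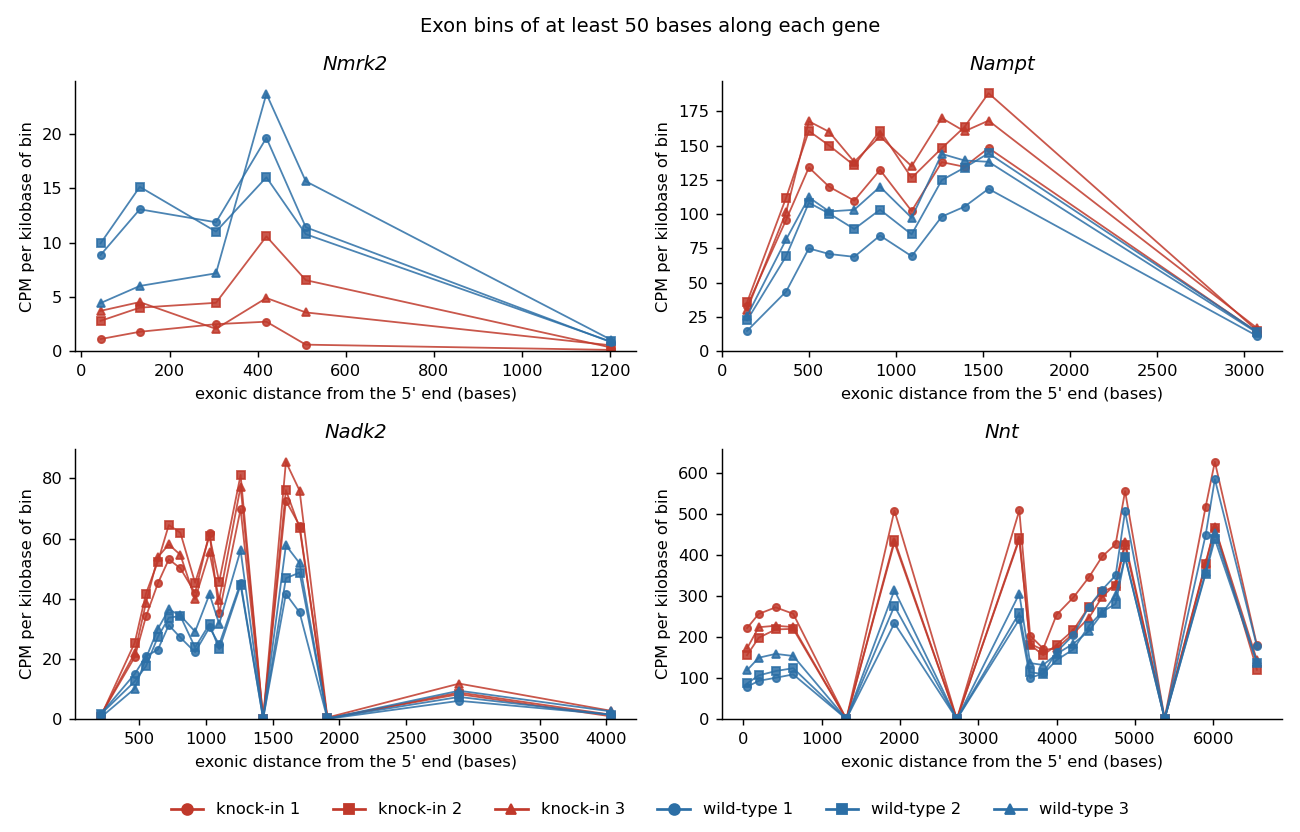
CPM per kilobase in each exon bin of at least 50 bases, against its distance from the 5′ end in exonic bases, for Nmrk2, Nampt, Nadk2 and Nnt, with knock-in hearts in red and wild-type hearts in blue. Bins near 0 inside Nadk2 and Nnt belong to rarely used annotated exons. The Nnt curves are apart on the left, where the log2 ratio of the means over the first of 3 equal parts is 0.88, and run together on the right, where it is 0.07 over the last part, while the knock-in curves of Nmrk2 lie low along the gene.

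Of the deacylases, Sirt1 (ENSMUSG00000020063, chromosome 10) had 7.74, 8.21 and 11.1 CPM in knock-in hearts, against 5.33, 5.92 and 8.33 CPM in wild-type hearts. The highest wild-type heart passed the lowest knock-in values, and the log2 difference of 0.47 ± 0.21 (SE) had an edgeR adjusted p of 0.171. Without wild-type replicate 3 it was 0.69 with an adjusted p of 0.0388. Sirt3 (ENSMUSG00000025486, chromosome 7) had 65.4, 58.1 and 52.6 CPM in knock-in hearts, against 64.3, 59.8 and 49.0 CPM in wild-type hearts. The groups overlapped over most of their ranges, with a log2 difference of 0.02 ± 0.13 (SE) and an edgeR adjusted p of 0.926. The sign of this difference turned with total counts and with upper-quartile factors, at −0.046 and −0.050. The log2 ratio of Sirt1 to Sirt3 differed by 0.45 between the groups, with an exact permutation p of 0.4.

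**Figure D4:**
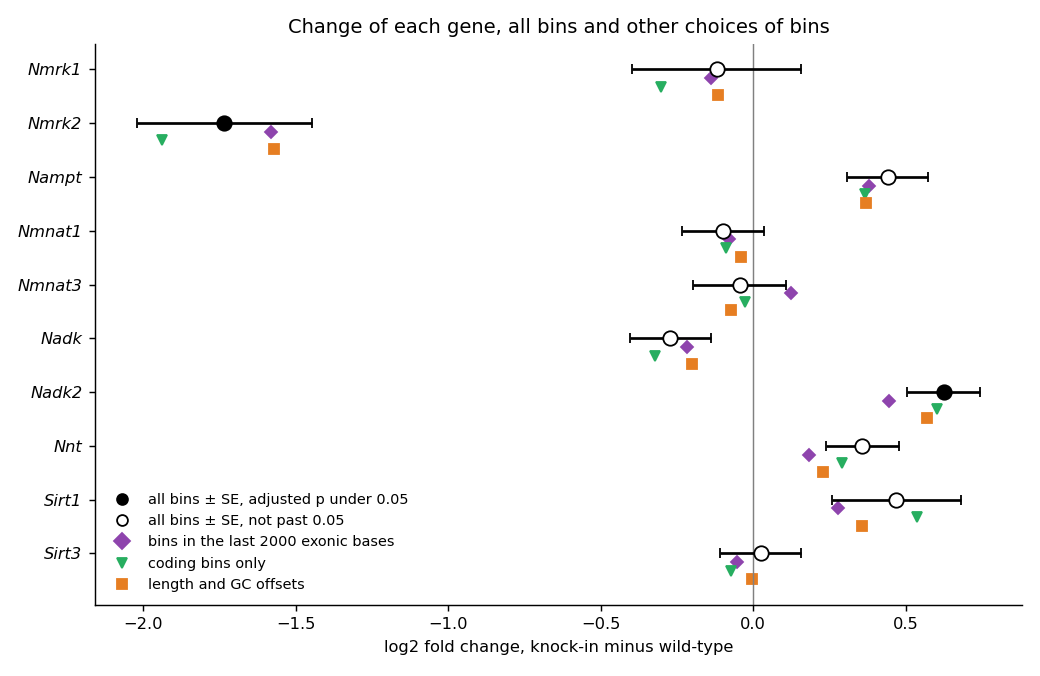
Log2 fold change of each gene, knock-in minus wild-type, from all bins (black circles with SE, filled where the adjusted p is under 0.05) and from bins of the last 2000 exonic bases, from coding bins and with length and GC offsets. Nmrk2 lies at −1.73 and Nadk2 at 0.63 with all bins, and Nadk2 lies at 0.45 with the last 2000 bases. Nmrk2 is 1840 bases long, so all its bins lie in that window and its diamond is no restriction to the 3′ end.

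Set side by side per kilobase of exon, the order of the levels was much the same in both groups apart from Nmrk2. In knock-in hearts it ran Nnt (123 CPM per kilobase), Nampt (52.0), Nadk2 (20.4), Sirt3 (9.83), Nadk (6.35), Nmnat1 (6.09), Nmnat3 (3.16), Sirt1 (1.69), Nmrk2 (1.37) and Nmrk1 (0.905). In wild-type hearts it ran Nnt (95.8), Nampt (38.3), Nadk2 (13.2), Sirt3 (9.66), Nadk (7.67), Nmnat1 (6.52), Nmrk2 (4.56), Nmnat3 (3.26), Sirt1 (1.22) and Nmrk1 (0.982). On this scale Nmrk2 was seventh in wild-type hearts, above Nmnat3 without overlap, and ninth in knock-in hearts, where it overlapped with both Sirt1 and Nmrk1. Nadk and Nmnat1 overlapped in each group, as did Sirt1 and Nmrk1 in wild-type hearts. Per kilobase of coding bins, Nadk2 (41.2) stood below Sirt3 (44.6) in wild-type hearts and above it in knock-in hearts, at 67.9 against 46.1. The place of Nmrk2 also changed with coding bins. By mean it was at rank 8 in wild-type hearts (13.7), below Nmnat3 (17.5) and Nadk (16.6), so its place above Nmnat3 held only with all bins. A read that spans several bins is counted in each, so genes cut into more or shorter bins gain counts. This limits comparisons of level between genes.

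The other genes of NAD synthesis, transport, use and repair were called about as often as all genes. Of 44 listed, 40 were found in the table by symbol, with Slc25a51 and Parp1 under identifiers that join them with another gene, and the 32 that could be tested gave 2 higher, 2 lower and 28 without a call, with a median log2 fold change of −0.10, where 10.8% of all genes were called. The 4 calls were on genes of the ADP-ribosyltransferase family, whose active members use NAD to modify proteins. Tnks had 41.4, 54.4 and 51.2 CPM in knock-in hearts, against 23.9, 26.97 and 37.2 CPM in wild-type hearts, and its relative Tnks2 had 74.0, 88.3 and 101 CPM in knock-in hearts, against 44.1, 55.1 and 68.6 CPM in wild-type hearts. They rose by 0.74 and 0.65 on the log2 scale, with edgeR adjusted p of 0.0193 and 0.0257, and neither overlapped. Parp9 had 8.13, 9.61 and 10.6 CPM in knock-in hearts, against 13.7, 14.4 and 13.5 CPM in wild-type hearts, and Parp16 had 1.077, 1.43 and 1.4996 CPM in knock-in hearts, against 2.95, 3.10 and 1.93 CPM in wild-type hearts. They fell by 0.55 and 0.99 on the log2 scale, with edgeR adjusted p of 0.0394 and 0.0425, and did not overlap either.

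With the highest bin alone Tnks was at 0.14 and Tnks2 at 0.12, with edgeR adjusted p of 0.682 and 0.707, and with the coverage ratio in the model both were at −0.35 without a call. Each of these 4 calls was lost with at least 4 of the 6 hearts left out in turn. Next by p came Parp4, at 0.52 with an edgeR adjusted p of 0.0591, and Parp6, at −0.37 with an adjusted p of 0.0730. Sirt2, Sirt4, Sirt5 and Sirt6, named here after their values were seen, had log2 differences of 0.11, −0.56, 0.16 and −0.59, and edgeR adjusted p between 0.104 and 0.560. Of the path from tryptophan to NAD, Tdo2, Kynu and Haao had no count in any library, as did the carrier Slc22a13, which allows up to 0.0882 to 0.0979 CPM in each. In this list Sirt7, Pnp, Afmid and Parp10 are joined with other genes in the table in a way that gives no single symbol, and were not analysed here.

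**Figure D5:**
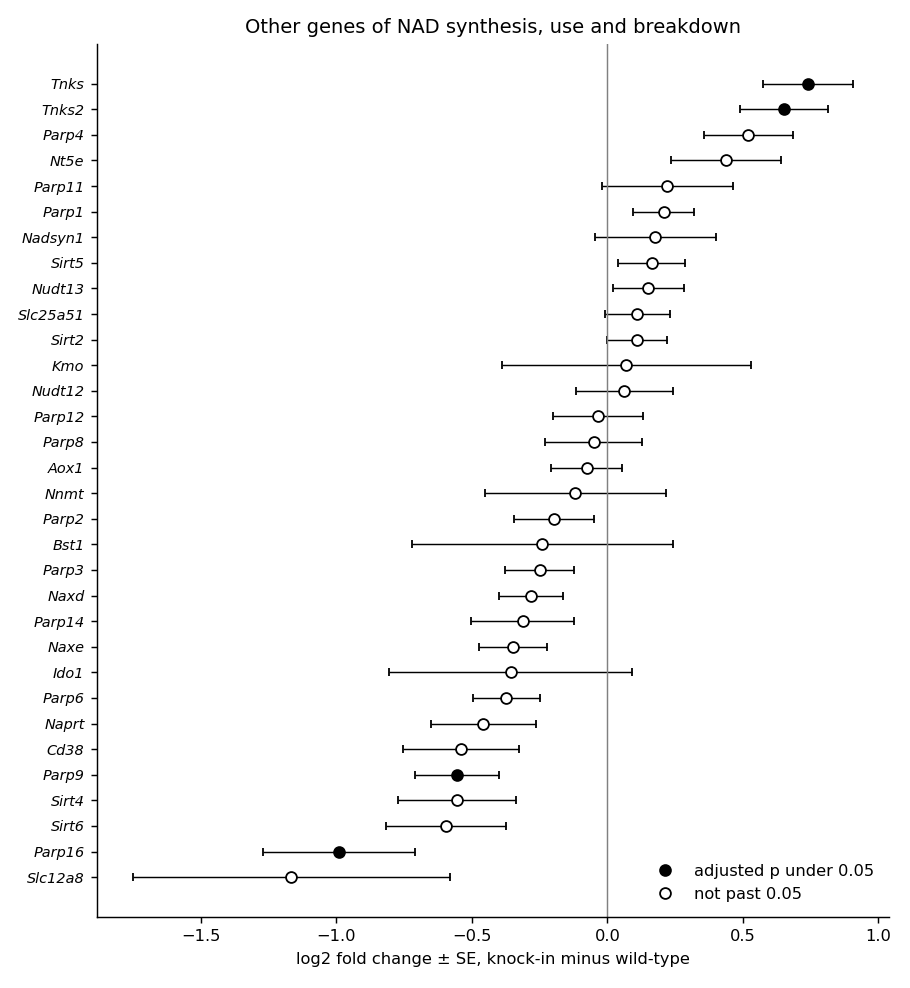
Log2 fold change with SE of the 32 other NAD genes tested, knock-in minus wild-type, sorted by value, with filled points where the edgeR adjusted p is under 0.05. Tnks (0.74) and Tnks2 (0.65) are at the top, and Parp9 (−0.55) and Parp16 (−0.99) are the filled points on the negative side.

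NADPH, the product of Nadk2 and Nnt activity together with several dehydrogenases, feeds the thioredoxin and glutathione systems. Of 14 genes listed for NADPH supply and use or as relatives of such genes, all tested, 1 rose and 13 passed no threshold. Their median log2 fold change was 0.04. Over all genes, 6.74% were higher and 10.8% were called in either direction. The gene that rose was Me1, the cytosolic malic enzyme, which had 135, 142 and 133 CPM in knock-in hearts, against 95.6, 103 and 108 CPM in wild-type hearts. The groups did not overlap, and the log2 fold change was 0.42 with an edgeR adjusted p of 0.0248, which was lost with 4 of the 6 hearts left out in turn. DESeq2 called 3 of the 14 genes. Pgd, of the pentose phosphate pathway, followed at 0.38 (edgeR adjusted p of 0.0538), and the mitochondrial folate genes Mthfd1l, Mthfd2l and Mthfd2 at 1.56, 0.73 and 0.36 (0.0637, 0.115 and 0.367). The Mthfd1l value rests on 263 counts over all libraries, and its groups overlapped, as did those of Mthfd2l and Mthfd2. Txnrd1, the cytosolic thioredoxin reductase, was at 0.15 with an adjusted p of 0.491.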

How the data were processed

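The deposited table holds whole-number counts of reads per exon bin, not normalized, for 425461 bins. The authors' tools were, per the submitters' processing notes, STAR, featureCounts, Subread 1.5.2 and DESeq2 on GRCm38.p6, whose roles and settings are not stated in the labels. Libraries were matched to columns by the numbers in their titles. Very short bins hold counts, so a read spanning several bins was counted in each. Bins were summed per gene, named from GENCODE annotation of GRCm38, and filtered with filterByExpr. After TMM scaling, the quasi-likelihood F test of edgeR 4.0.16 (robust) was run in R 4.3.3, and p-values of all 13066 genes were adjusted by Benjamini-Hochberg at a threshold of 0.05. Bin usage was tested with diffSpliceDGE. Log2 ratios used a prior count of 2. SEs of log2 fold changes come from the F statistics. Ratios within hearts were compared by exact permutation. Promoter windows came from RefSeq on GRCm38.p6. The steps were tested on simulated data.

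Members and lists were chosen with earlier results of these data known. Named genes were all 10 members, up to 6 of each list by smallest p, the 4 genes most like Nmrk2 and Nampt, and Txnip. Alternatives were other scalings, DESeq2 1.42.0, limma-voom 3.58.1, other filters and choices of bins, length and GC offsets, a coverage covariate, and each heart left out. Replicate pairs were further apart than sampling noise (chi-square over its degrees of freedom 15.2 to 42.5), so no library was merged. Floors cover counting error only.

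Other marker lists gave these numbers of genes higher and lower among those tested: adipocyte 1 and 0 of 1, endothelial 0 and 2 of 6, fibroblast 0 and 1 of 6, macrophage and leukocyte 0 and 1 of 5, smooth muscle and pericyte 0 and 2 of 5, and neutrophil, platelet and red cell 1 and 3 of 7. The adipocyte gene was Cidea. Adipoq, Plin1 and Cfd had 4, 5 and 15 counts over all libraries, and Ucp1 and Lep had none. In the last list the platelet genes Ppbp, Pf4 and Itga2b fell and Hbb-bs rose. Of the atrial list, 2 were tested and 0 passed with edgeR or DESeq2, with 1 at an unadjusted edgeR p under 0.05.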

Additional observations from a re-analysis of the deposited data

How the results depend on the processing

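Nmrk2 was lower in knock-in hearts under all 22 alternatives and passed the threshold in 20, with −1.19 for the last 1000 exonic bases and −2.02 with the 3′ to 5′ covariate as the exceptions, while the window of 2000 bases holds all of its bins. Nadk2 was higher under all, but lost its call at 0.14 (last 1000 bases), 0.47 (highest bin), 0.45 (last 2000 bases, added after seeing the data) and 0.11 (covariate), and ran from 0.53 to 0.73 with single hearts left out. Nampt gained a call with DESeq2 (0.43), limma-voom (0.45), no filter (0.43) and length and GC offsets (0.37), turned to −0.33 with the covariate, and ran from 0.29 to 0.54 with hearts left out. Nnt gained one with no filter (0.35). Sirt1 turned to −0.45 with the covariate and ran from 0.28 to 0.69 with hearts left out. Small differences changed sign: Nmnat1 at 0.042 (highest bin), Nmnat3 at 0.030 (highest bin), 0.12 (last 2000 bases) and 0.52 (covariate), and Sirt3 at −0.0024 (last 1000 bases), −0.073 (coding bins), −0.0054 (offsets), −0.0072 (mean CPM of at least 1), −0.052 (last 2000 bases), −0.046 (total counts) and −0.050 (upper-quartile factors). With hearts left out, Nmrk1 ran from −0.41 to 0.12, Nmnat3 from −0.15 to 0.022 and Sirt3 from −0.079 to 0.082. Calls over all genes numbered 1415, against 612 (highest bin), 277 (last 1000 bases), 442 (last 2000 bases), 4 (covariate) and 164 to 2461 with hearts left out. Genes with changed bin usage numbered 735, against 377 with bins of a mean count of at least 50. The cause was not tested, except that fewer bins or samples enter some fits. The covariate did not overlap between the groups, so its fit cannot separate coverage from genotype. The last 1000 bases hold no bin of Nampt, Nmnat3 or Sirt1 that could be used for a test, so the Nmrk2 to Nampt balance was not computed there. No paired analysis was possible because the labels give no replicate numbers and no pairing. The replicate numbers used here follow the order of the samples and only name the hearts. Depth limits the genes of few counts, such as Nmrk1, Nmrk2 and Sirt1.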
